A study of Mus musculus with 4 samples.

Results

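The genes described here encode the transforming growth factor β (TGF-β) ligands Tgfb1, Tgfb2 and Tgfb3, the receptors Tgfbr1, Tgfbr2 and Tgfbr3, and the latent TGF-β binding proteins Ltbp1, Ltbp2, Ltbp3 and Ltbp4. They were taken by gene name, and no value enters the rule. All 10 were found by symbol among the 39179 genes of the deposited mouse table, and all 10 passed the filter on low values (a mean of at least 10 normalized counts over the libraries), as did 15058 genes in all. The labels describe the RNA as that of primary aortic smooth muscle cells, the contractile cells of the vessel wall, from mice 18 days after tamoxifen. The sample titles name only the aorta, and markers of macrophages, endothelium, fibroblasts and adipocytes were read in every library, as given below. The RNA therefore need not be that of smooth muscle cells alone. The first group, called KO, came from mice labelled Sm-Yap/Taz-KO, a label that names a smooth muscle knockout of YAP (gene Yap1) and TAZ (gene Wwtr1), the co-activators that the Hippo pathway restrains. The second, called WT, came from wild-type mice that the labels also place 18 days after tamoxifen injection. There were 2 KO and 2 WT libraries. The promoter driving the recombinase, the age and sex of the mice, whether the cells were cultured, and whether a library holds 1 animal or a pool are not stated in the labels. The p-values therefore measure only the spread between these libraries, which may be technical.

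TGF-β ligands are made as precursors, cut by furin-like proteases, and leave the cell bound to their own propeptide, which keeps them inactive. Latent binding proteins are large matrix glycoproteins. LTBP1, LTBP3 and LTBP4 are disulphide-linked to this latent complex and tether it to fibrillin and fibronectin, while LTBP2 sits on fibrillin without binding the latent growth factor. Integrins, proteases and thrombospondin can free the ligand, which then brings together the type II receptor (TGFBR2) and the type I receptor (TGFBR1). The type I receptor phosphorylates the transcription factors SMAD2 and SMAD3. In the aorta the pathway promotes contractile and matrix gene expression in smooth muscle, and in humans inherited defects of its ligands and receptors cause aortic aneurysm.

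The deposited values are read counts normalized by the authors with 1 factor per library and rounded. They summed to between 13279332 and 14519178 per library. The steps between the rounded values put the reads on genes at about 12300000 and 11810000 in the KO and 15620000 and 16810000 in the WT libraries, so the KO libraries were the shallower. Yap1, measured as a check of the labels, had 947 and 962 normalized counts in KO against 1966 and 1877 in WT, and Wwtr1 had 2848 and 2466 in KO against 3423 and 4016 in WT. Both genes were lower in each KO library than in either WT library, but the groups did not overlap for 62.8% of all tested genes. By limma Yap1 passed (log2 fold change, KO over WT, -1.01, adjusted p = 0.00802). Wwtr1 did not pass (log2 fold change -0.48, limma adjusted p = 0.0553). Of the 10 smooth muscle markers 8 fell in KO, where 6.7% of all tested genes were called lower. The summed level of the 10 was 191167 and 145978 normalized counts in KO against 476970 and 452152 in WT. Markers of several other cell types rose in KO, where 9.58% of all tested genes were called higher: 15 of 16 macrophage markers rose (summed level 14130 and 19656 in KO, 1354 and 3726 in WT), as did 6 of 12 endothelial markers (14912 and 13344 in KO, 5894 and 8370 in WT) and 2 of 13 adventitial fibroblast markers (93261 and 63258 in KO, 35679 and 60262 in WT). The fibroblast count is close to that background, and it was 5 at the same total and 6 after quantile normalization. All 13 fibroblast markers nevertheless had a positive log2 fold change (KO over WT), with a median of 1.138. At an unadjusted limma p under 0.05, 10 of them were higher, beside 2699 of all 15058 tested genes. Of 11 adipocyte markers 7 rose and 1 fell (summed level 22653 and 20215 in KO, 10042 and 12449 in WT). The median log2 fold change of the adipocyte markers was 2.12. Of the 4 tested neutrophil markers 3 rose, and neither of the 2 tested T cell markers passed. Without WT replicate 2 limma called 10 macrophage, 6 endothelial and 8 fibroblast markers higher and 3 smooth muscle markers lower, and without any other library 0 of each and 0 genes in all. The neutrophil marker Ly6g was at 0 in all 4 libraries. The part of these other cells in the values below was not tested, and in bulk RNA fewer cells of a type and less RNA per cell cannot be told apart.

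Of the 10 TGF-β genes, Ltbp1 and Tgfb2 fell in KO, none rose and 8 did not pass at a limma adjusted p of 0.05. Over all tested genes 16.3% were called, 9.58% higher and 6.7% lower in KO. At an unadjusted limma p under 0.05, 3 of the 10 were higher in KO (Tgfb1, Tgfbr1 and Tgfbr2) and the same 2 were lower. The KO and WT libraries did not overlap for 6 of the 10, against 62.8% of all tested genes, a share near this background. The median log2 fold change (KO over WT) of the 10 genes was 0.11, beside -0.02 over all tested genes. The 10 genes thus showed no common direction: 6 had a positive and 4 a negative log2 fold change. The calls, here and over the whole table, depended on the fit. limma called 0 of the 10 genes, and 0 genes at all, without the filter on low counts (5472 genes at an unadjusted p under 0.05) or without the intensity trend (4274 such genes), and 0 of the 10 whichever single library was left out. Without KO replicate 1, KO replicate 2 or WT replicate 1 it called 0 of all 15058 genes, so a call lost in those fits says nothing of a single gene.

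**Figure D1:**
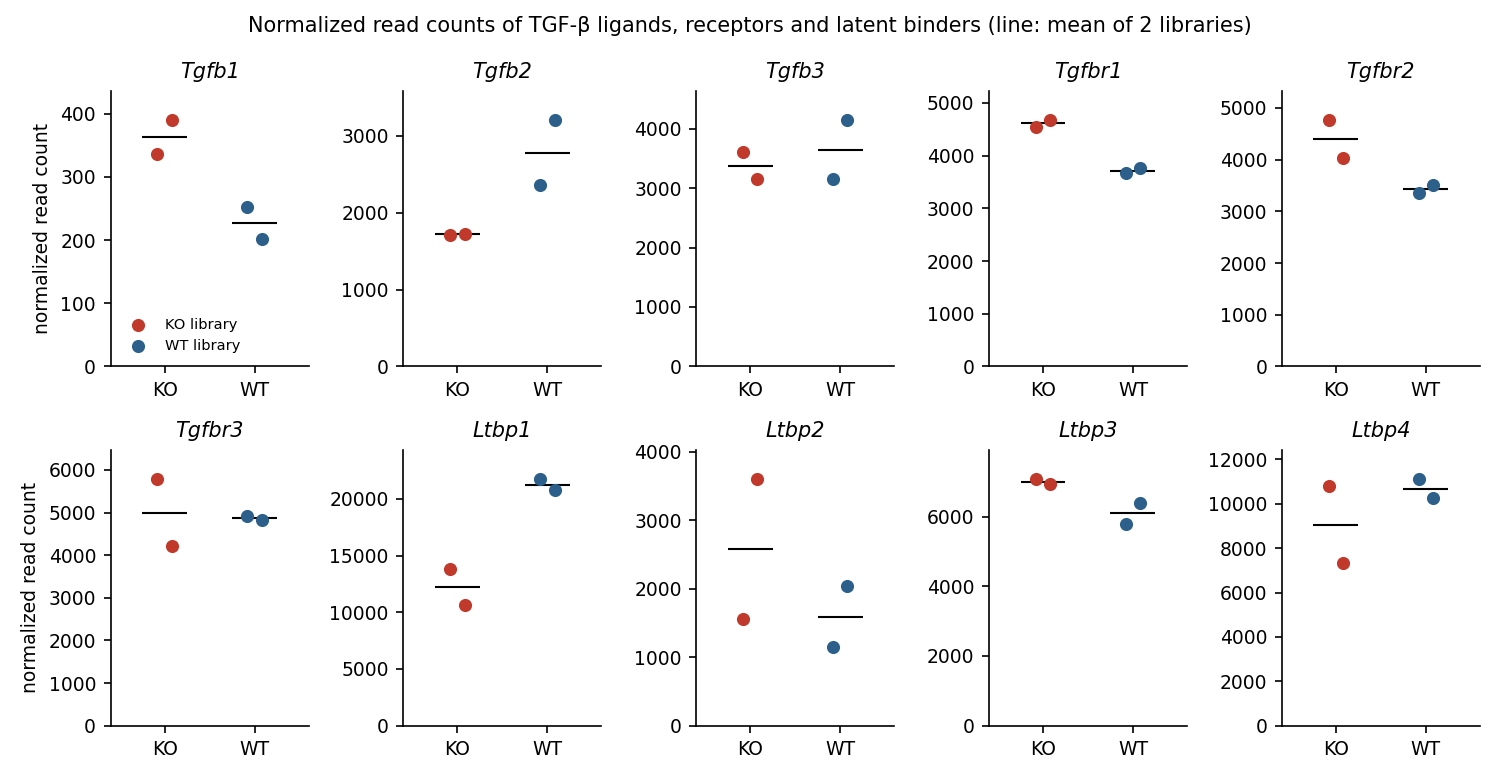
Normalized read count (y axis, linear from 0, own scale per gene) of each TGF-β gene in the 2 KO and the 2 WT libraries, with a line at each mean. Ltbp1 and Tgfb2 lie lower in both KO libraries, Tgfb1, Tgfbr1, Tgfbr2 and Ltbp3 lie higher, and the groups overlap for Tgfb3, Tgfbr3, Ltbp2 and Ltbp4.

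Among the ligands, Tgfb2 fell and Tgfb1 and Tgfb3 did not pass. Tgfb2 (chromosome 1, 186622792 to 186705989, minus strand, GRCm38), the ligand that binds its receptors weakly without the co-receptor betaglycan, had 1707 and 1727 normalized counts in KO against 2355 and 3206 in WT. The KO libraries were nearly alike, the WT libraries differed from each other, and both KO values lay below both WT values. Its KO mean was 0.618 times the WT mean, a log2 fold change of -0.68 (SE 0.16, 95% interval -1.07 to -0.29, n = 2 per group, limma adjusted p = 0.0400). The size of the fall rested in part on WT replicate 2: the log2 fold change was -0.46 without that library (limma adjusted p = 0.131) and -0.90 without WT replicate 1 (adjusted p = 0.132). Without KO replicate 1 or 2 the limma adjusted p was 0.247 and 0.272.

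The window around the RefSeq start of Tgfb2 is shown because Tgfb2 was 1 of the 2 genes that fell, so that its sequence can be read beside that of Ltbp1 below. It runs from 250 bases before to 50 bases after the start on the gene's strand, 5′ to 3′, and its capitals mark matches to CAGAC, the core motif of SMAD proteins, on either strand.
Tgfb2, GRCm38.p6 chr1:186705940-186706239, minus strand: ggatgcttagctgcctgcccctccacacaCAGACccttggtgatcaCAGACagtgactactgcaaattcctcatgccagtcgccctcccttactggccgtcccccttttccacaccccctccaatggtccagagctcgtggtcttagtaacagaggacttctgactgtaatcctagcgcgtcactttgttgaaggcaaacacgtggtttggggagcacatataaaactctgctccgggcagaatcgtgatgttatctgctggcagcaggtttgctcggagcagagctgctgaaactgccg
Both matches lie upstream, 221 and 204 bases before the start. The motif is common, with a match in 49.59% of the 32851 promoter windows of this length in the table. Neither GGAATG, the motif of the TEAD proteins through which YAP and TAZ reach DNA (14.66% of all windows), nor TGANTCA, the motif of AP-1 (7.81%), nor the CArG box of serum response factor (1.63%) was found in it on either strand.

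Tgfb1 (chromosome 7, 25687002 to 25705077, plus strand), the ligand most abundant in platelets and immune cells, had 336 and 390 normalized counts in KO against 252 and 202 in WT. Both KO values were the higher ones. The KO mean was 1.60 times the WT mean (log2 fold change 0.68, SE 0.18, 95% interval 0.23 to 1.13), and the gene did not pass (limma adjusted p = 0.0562). The limma adjusted p was 0.0445 after rescaling the libraries to the same total. The summed macrophage markers given above were also higher in both KO libraries, and their part in the level of Tgfb1 was not tested.

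Tgfb3 (chromosome 12, 86056745 to 86079041, minus strand), a ligand with functions in palate and lung development, had 3604 and 3151 normalized counts in KO against 3153 and 4146 in WT. The groups overlapped. Its log2 fold change was -0.10 (SE 0.16), with a 95% interval from 0.713 to 1.22 as a KO to WT ratio, and the limma adjusted p was 0.702. Without WT replicate 2 the log2 fold change was 0.10, so its sign depended on that library.

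Levels of different genes were compared as normalized counts per kilobase of annotated exon. Tgfb3 was the leading ligand transcript, with 1065 and 931 per kilobase in KO against 932 and 1226 in WT. Tgfb2 had 295 and 298 per kilobase in KO against 407 and 554 in WT, and Tgfb1 the lowest level, with 66.6 and 77.4 in KO against 49.98 and 40.1 in WT. As a share of the 3 ligands, Tgfb3 made up 73.0% ± 2.41 (SD, n = 2) in KO and 67.2% ± 0.177 in WT, Tgfb2 21.7% ± 1.53 in KO and 29.9% ± 0.811 in WT, and Tgfb1 5.29% ± 0.882 in KO and 2.90% ± 0.988 in WT. For each of these shares the KO and WT libraries were separate. With 2 libraries per group such separation is common: the counts of 62.8% of all tested genes showed it. The 3 shares are parts of the same sum, so they are not separate results. With the longest annotated transcript as the length, the Tgfb1 share was 9.60% in KO and 5.32% in WT. The SDs leave out this choice of length. The ratio of 2 genes within a library is free of the scaling between libraries: that of Tgfb1 to Tgfb2 per kilobase was 0.226 and 0.259 in KO against 0.123 and 0.0724 in WT, and that of Tgfb3 to Tgfb2 was 3.61 and 3.12 in KO against 2.29 and 2.21 in WT. Summed over the ligands, the level per kilobase was 1427 and 1307 in KO against 1389 and 1819 in WT, so the summed level overlapped between the groups.

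None of the 3 receptors passed. Tgfbr1 (chromosome 4, 47353222 to 47414931, plus strand), the kinase that phosphorylates SMAD2 and SMAD3, had 4545 and 4675 normalized counts in KO against 3670 and 3763 in WT. The replicates were close within each group and both KO values were above both WT values. The KO mean was 1.24 times the WT mean (log2 fold change 0.31, SE 0.09, 95% interval 0.08 to 0.54, limma adjusted p = 0.0764). Tgfbr2 (chromosome 9, 116084293 to 116175360, minus strand), the kinase that binds the ligand and activates TGFBR1, had 4766 and 4026 normalized counts in KO against 3354 and 3519 in WT. Its groups did not overlap either, with a ratio of 1.28 (log2 fold change 0.35, SE 0.12, 95% interval 0.06 to 0.64, limma adjusted p = 0.0998). For both genes the call depended on the scaling. After quantile normalization limma gave adjusted p-values of 0.0323 for Tgfbr1 and 0.0335 for Tgfbr2, and after rescaling to the same total 0.0381 and 0.0382.

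Tgfbr3 (chromosome 5, 107106570 to 107289629, minus strand) encodes betaglycan, the co-receptor that presents ligand to TGFBR2. It had 5780 and 4221 normalized counts in KO against 4919 and 4834 in WT. The KO values stood on either side of the WT values. Its log2 fold change was 0.02 (SE 0.16, limma adjusted p = 0.953), with a 95% interval of 0.770 to 1.33 for the KO to WT ratio, and -0.21 without KO replicate 1 and 0.25 without KO replicate 2. Within the libraries, the ratio of Tgfbr1 to Tgfbr2 per kilobase was 1.19 and 1.46 in KO against 1.37 and 1.34 in WT and overlapped. That of Tgfbr3 to Tgfbr2 was 1.52 and 1.31 in KO against 1.83 and 1.72 in WT and did not overlap. Such separation, here and in the counts of Tgfbr1 and Tgfbr2, is common: the counts of 62.8% of all tested genes showed it.

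Among the latent binders, Ltbp1 fell and the other 3 did not pass. Ltbp1 (chromosome 17, 75005568 to 75392512, plus strand), which encodes the first described binder of the latent complex, had 13854 and 10676 normalized counts in KO against 21731 and 20792 in WT. The WT libraries were close to each other and both KO values lay below them. The KO mean was 0.577 times the WT mean, a log2 fold change of -0.81 (SE 0.15, 95% interval -1.18 to -0.43, n = 2 per group, limma adjusted p = 0.0225). Its size depended on the scaling and on KO replicate 2: the log2 fold change was -0.53 after quantile normalization (limma adjusted p = 0.0485), -0.62 without KO replicate 2 (adjusted p = 0.209) and -0.99 without KO replicate 1 (adjusted p = 0.156). Without WT replicates 1 and 2 the limma adjusted p was 0.209 and 0.119. The summed smooth muscle markers were lower in the same KO libraries, and their part in the fall of Ltbp1 was not tested.

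Ltbp1 has an upstream RefSeq start and a second one inside the gene, known to give a long and a short form of the protein, and both windows are shown because the deposited counts, 1 per gene, do not separate reads from the 2 starts. Capitals mark CAGAC as above and TGACGTCA, the cyclic AMP response element, a motif added after the sequence had been read.
Ltbp1 upstream start, GRCm38.p6 chr17:75005279-75005578, plus strand: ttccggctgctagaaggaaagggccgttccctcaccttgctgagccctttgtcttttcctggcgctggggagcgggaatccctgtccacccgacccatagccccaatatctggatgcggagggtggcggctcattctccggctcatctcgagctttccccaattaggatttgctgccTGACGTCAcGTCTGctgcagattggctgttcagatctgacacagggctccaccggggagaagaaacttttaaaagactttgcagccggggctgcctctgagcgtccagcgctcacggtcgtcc
Ltbp1 internal start, GRCm38.p6 chr17:75178531-75178830, plus strand: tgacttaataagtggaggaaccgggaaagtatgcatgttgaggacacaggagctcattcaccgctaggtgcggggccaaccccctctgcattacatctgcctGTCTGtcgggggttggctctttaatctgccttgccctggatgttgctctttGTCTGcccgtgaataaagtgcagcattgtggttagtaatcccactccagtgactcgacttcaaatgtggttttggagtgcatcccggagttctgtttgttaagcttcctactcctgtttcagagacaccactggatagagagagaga
TGACGTCA lies 73 bases before the upstream start and 1 CAGAC match 64 bases before it, and the 2 motifs do not overlap. The internal window holds CAGAC matches 148 and 97 bases before its start. TGACGTCA was found in 1.79% of all windows, and among those of the TGF-β genes in this window alone. The RefSeq table matched 8 of the 10 genes with 12 windows, and GGAATG and the CArG box were found in none of these 12, while TGANTCA was found once, 6 bases before the start of Ltbp3. A match or its lack describes these letters only.

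Ltbp2 (chromosome 12, 84783212 to 84876532, minus strand) had 1560 and 3595 normalized counts in KO against 1142 and 2037 in WT. Replicate 2 was the higher library in both groups, by 1.20 on the log2 scale in KO and 0.83 in WT, and the groups overlapped. Its log2 fold change of 0.63 had the largest SE of the 10 genes, 0.43, and a limma adjusted p of 0.369. It was 0.03 without KO replicate 2 and 1.24 without KO replicate 1, so KO replicate 2 set its size, and 0.22 without WT replicate 1 and 1.05 without WT replicate 2.

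Ltbp3 (chromosome 19, 5740904 to 5758532, plus strand), a binder of the latent complex with a role in skeletal and tooth development, had 7072 and 6941 normalized counts in KO against 5787 and 6395 in WT. The groups did not overlap, yet the KO mean was only 1.15 times the WT mean (log2 fold change 0.20, SE 0.10, 95% interval -0.05 to 0.46, limma adjusted p = 0.237). Ltbp4 (chromosome 7, 27305136 to 27337692, minus strand), needed for elastic fibre assembly, had 10792 and 7329 normalized counts in KO against 11106 and 10244 in WT. KO replicate 1 lay between the WT libraries and KO replicate 2 below them. The log2 fold change was -0.26 (SE 0.19, 95% interval -0.73 to 0.21, limma adjusted p = 0.399), and 0.02 without KO replicate 2, so that 1 library gave it its sign.

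**Figure D2:**
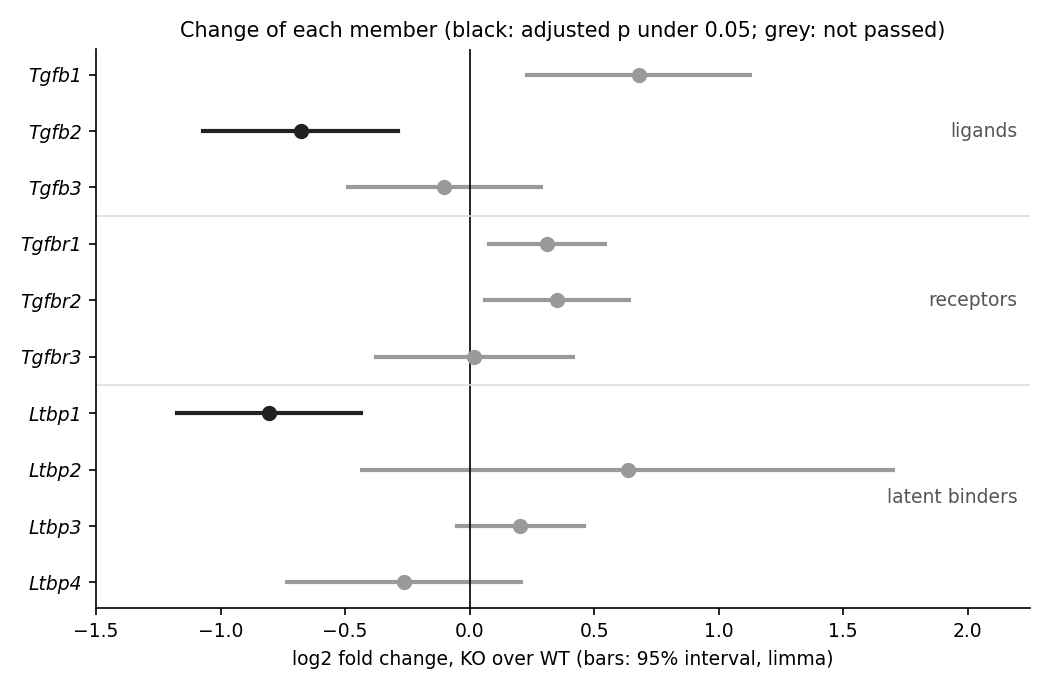
Log2 fold change of each TGF-β gene, KO over WT (x axis), with limma's 95% interval as a bar, ligands at the top, receptors in the middle and latent binders at the bottom. Black marks the 2 genes past an adjusted p of 0.05, Tgfb2 at -0.68 and Ltbp1 at -0.81, and the widest interval is that of Ltbp2.

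In level per kilobase, the summed latent binders exceeded the summed receptors (2161 and 1852 in KO, 1723 and 1744 in WT) and the summed ligands in every library. Ltbp1 had 1296 and 999 per kilobase in KO against 2033 and 1945 in WT, and Ltbp4 1670 and 1134 in KO against 1718 and 1585 in WT. In WT, Ltbp1 stood first and Ltbp4 second without overlap. In KO, Ltbp4, Ltbp1 and Tgfb3 came in that order in each of the 2 libraries, although the range of each over the libraries overlapped with that of the next. With the longest annotated transcript as the length, Ltbp1 came first and Ltbp4 second in both groups. Below them, the order of Ltbp3, Tgfbr3 and Tgfbr1 differed between the KO libraries, as did that of Ltbp2 and Tgfb2, and in WT that of Tgfb2 and Tgfbr2. Ltbp1 made up 31.4% ± 2.12 (SD, n = 2) of the summed level of the 4 binders in KO and 44.1% ± 1.07 in WT. Ltbp3 made up 21.4% ± 2.21 in KO and 14.9% ± 1.16 in WT, Ltbp4 38.2% ± 5.97 in KO and 36.6% ± 1.84 in WT, and Ltbp2 9.003% ± 5.88 in KO and 4.32% ± 1.75 in WT. Groups did not overlap for the shares of Ltbp1 and Ltbp3 and overlapped for those of Ltbp2 and Ltbp4. These shares too are parts of the same sum, and the counts of 62.8% of all tested genes did not overlap. The ratio of Ltbp1 to Ltbp3 per kilobase, which the scaling does not touch, was 1.66 and 1.30 in KO against 3.19 and 2.76 in WT. The ratio of Ltbp1 to Ltbp4 was 0.776 and 0.881 in KO against 1.18 and 1.23 in WT. Summed over the 4 binders, the level per kilobase was 3936 and 3337 in KO against 4529 and 4484 in WT.

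**Figure D3:**
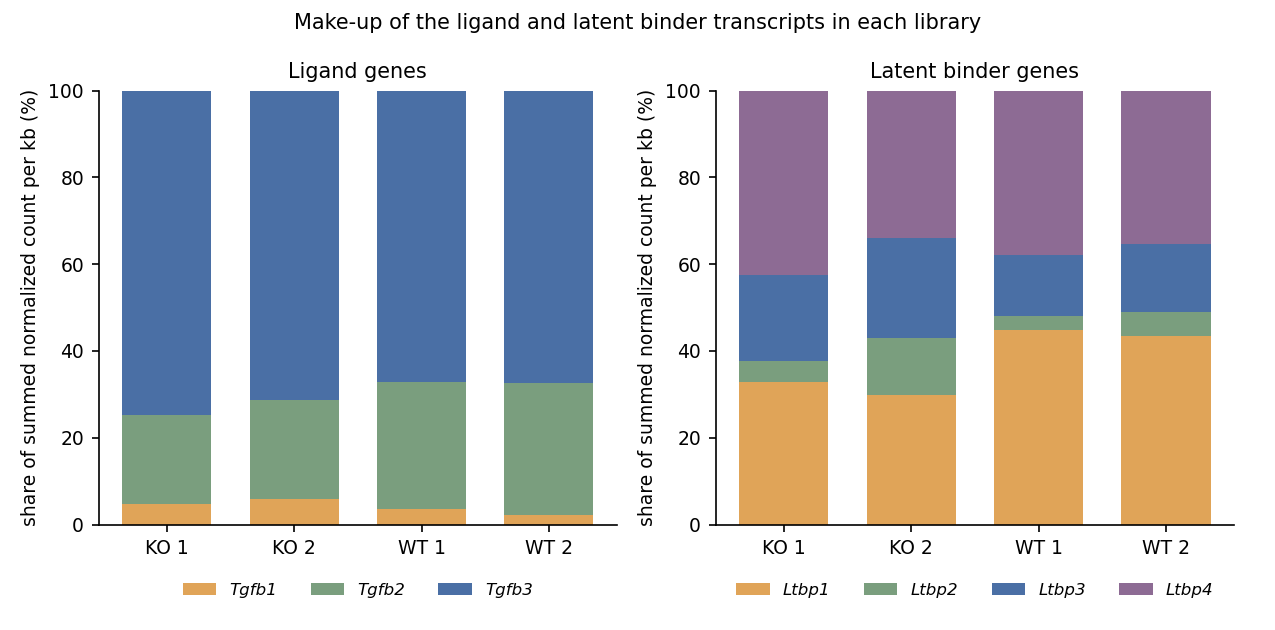
Share of each gene in the summed normalized count per kilobase of exon (y axis, percent), for the ligands on the left and the latent binders on the right, in the 2 KO and then the 2 WT libraries. Tgfb3 makes up most of the ligand level in all 4 libraries, and the Ltbp1 share is 32.9% and 29.9% in KO against 44.9% and 43.4% in WT.

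Among genes that free or anchor the latent complex, more rose than fell in KO. Of 21 listed, 19 were tested, 5 rose, 1 fell and 13 did not pass. Their median log2 fold change was 0.66, beside -0.02 over all tested genes, of which 9.58% were called higher and 6.7% lower. Fbn1, which encodes the fibrillin that LTBPs bind, rose, with 52970 and 43799 normalized counts in KO against 19330 and 28898 in WT (log2 fold change 1.03, SE 0.22, limma adjusted p = 0.0308). Thbs1, the thrombospondin that can activate the latent complex, had 3767 and 11350 in KO against 1032 and 1116 in WT (log2 fold change 2.61, SE 0.47, limma adjusted p = 0.0207). Its level in KO replicate 2 was far above that in KO replicate 1. The proteases Bmp1, which cuts LTBP1, and Mmp14, a membrane metalloproteinase, rose with log2 fold changes of 0.82 and 0.87. In the same libraries the fibroblast markers had a median log2 fold change of 1.138. Their part in the rises of Fbn1, Bmp1 and Mmp14 was not tested. Nrros, which holds latent TGF-β on myeloid cells, rose at a low level, with 151 and 205 normalized counts in KO against 26 and 40 in WT (log2 fold change 2.41), beside the rise of 15 of 16 macrophage markers. The integrin subunit gene Itgb1 was the one that fell (log2 fold change -0.49, limma adjusted p = 0.0422), a call lost after quantile normalization. The subunits Itgav (0.08), Itgb3 (-0.32), Itgb5 (-0.38) and Itgb8 (-0.42) did not pass. Without WT replicate 2 limma called 3 of these genes higher and 0 lower, and without any other library 0.

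Of 14 co-receptors and receptor regulators, all tested, 4 rose, 1 fell and 9 did not pass, beside 9.58% of all tested genes called higher and 6.7% called lower. The median log2 fold change was 0.09, and the single fall is a share near the background. Vasn, which encodes vasorin, a smooth muscle membrane protein that traps TGF-β, fell, with 894 and 912 normalized counts in KO against 3015 and 2552 in WT (log2 fold change -1.62, SE 0.12, limma adjusted p = 0.00478). Cd109, a membrane protein that promotes removal of the receptors, rose, with 3951 and 3624 in KO against 1091 and 1309 in WT (log2 fold change 1.66, SE 0.13, limma adjusted p = 0.00507). The endocytic adaptor Dab2, which links the receptors to SMADs, and the co-receptors Nrp1 and Eng rose with log2 fold changes of 1.73, 1.23 and 0.79. Fkbp1a, whose product holds TGFBR1 inactive, did not pass (-0.37, limma adjusted p = 0.0818). Dab2 and Nrp1 are also expressed by macrophages and Eng by endothelium, whose markers were higher in the same KO libraries. The part of these cells in the rises was not tested, nor that of the lower smooth muscle markers in the fall of Vasn. Without WT replicate 2 limma called 3 higher and 1 lower, and without any other library 0.

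Of 14 genes of the SMAD core and its repressors 13 were tested, none rose, 1 fell and 12 did not pass, a share lower in KO near the 6.7% of all tested genes. The median log2 fold change was -0.08, and 2 genes were higher at an unadjusted limma p under 0.05. Ski, a co-repressor of SMADs, fell, with 5481 and 5299 normalized counts in KO against 7592 and 7335 in WT (log2 fold change -0.47, SE 0.10, limma adjusted p = 0.0281), a call lost after quantile normalization. Smad3 had a log2 fold change of 0.36 (adjusted p = 0.0858 by limma), the inhibitory Smad7 0.47, Smad4, the partner of both receptor SMADs, -0.29, and the co-repressor Tgif1 0.54, and none of them passed. Smad2 was nearly level, at 486 and 492 normalized counts in KO against 473 and 511 in WT.

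Genes listed as induced by TGF-β moved in both directions. Of 24 tested, 5 rose, 4 fell and 15 did not pass, beside 9.58% higher and 6.7% lower over all tested genes, and the median log2 fold change was 0.75. The count of risers was 10 both after quantile normalization and after rescaling to the same total. The 4 that fell, Acta2, Tpm1, Tagln and Cnn1, encode smooth muscle contractile or actin-binding proteins, with log2 fold changes of -2.05, -1.45, -1.44 and -0.83, and Acta2, Tagln and Cnn1 also stand among the smooth muscle markers. The genes that rose included Bhlhe40 (log2 fold change 1.79), which encodes a transcriptional repressor, the metalloproteinase gene Adam12 (3.76), Col5a1 (0.92) and the matrix gene Postn (0.82). The feedback genes Pmepa1 (-0.08), Skil (0.25) and Smad7 (0.47) did not pass. Fibroblast markers had a median log2 fold change of 1.138 in the same libraries, and their part in these values was not tested. Without WT replicate 2 limma called 6 higher and 2 lower, and without any other library 0. Fn1 also stands in the list of genes that anchor the complex, Ltbp2 among the TGF-β genes themselves, and Smad7, Skil and Pmepa1 in the SMAD list.

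**Figure D4:**
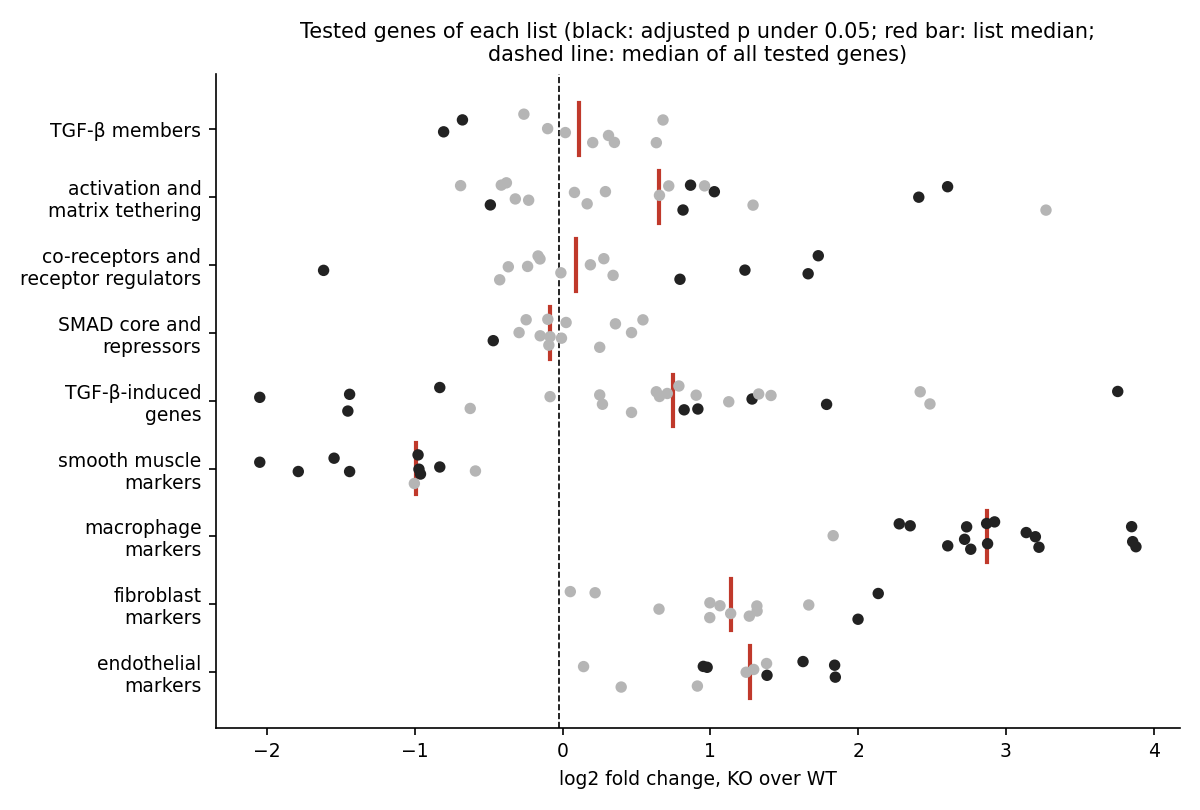
Log2 fold change of each tested gene, KO over WT (x axis), by list, with vertical scatter for legibility only. Black points passed an adjusted p of 0.05, red bars are list medians and the dashed line is the median of all tested genes, -0.02. The medians are 0.11 for the TGF-β genes, -0.99 for the smooth muscle markers and 2.87 for the macrophage markers.

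Reads over exons that another gene also covers may have been counted for either gene or for neither. For opposite-strand genes this depends on the strand setting of the counting, which no source used here names. In GENCODE M21, opposite-strand genes cover 9.34% of the exon length of Ltbp2, 7.60% and 4.82% of that of Tgfb3, 2.14% of that of Tgfb2 and 2.01% of that of Ltbp3, and a same-strand gene covers 4.54% of that of Tgfbr3. No such overlap was found for Ltbp1, Ltbp4, Tgfb1, Tgfbr1 or Tgfbr2.

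**Figure D5:**
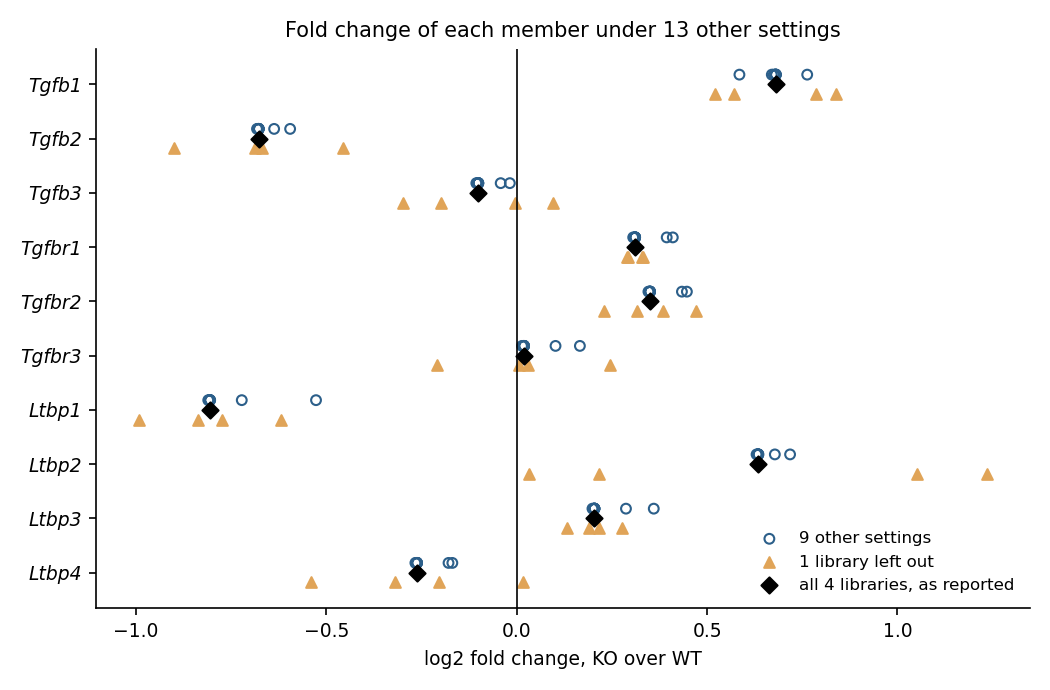
Log2 fold change of each TGF-β gene, KO over WT (x axis), with all 4 libraries (diamond), under 9 other settings of scaling, pseudocount, filter, trend or block (circles) and with 1 library left out (triangles). Tgfb1, Tgfbr1, Tgfbr2, Ltbp2 and Ltbp3 stay above 0 and Tgfb2 and Ltbp1 below 0 in all of these settings, while Tgfb3, Tgfbr3 and Ltbp4 change sign in 1 of them each.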

How the data were processed

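RNA of 2 KO and 2 WT samples was freed of ribosomal RNA before stranded library preparation, per the labels' protocols. The submitters' processing notes name FastQC, STAR 2.5.2b, featureCounts 1.5.1, DESeq2 1.14.1 and the build mm10/GRCm38, without roles. The authors deposited 1 table of normalized counts rounded to whole numbers, treated here as a score: 11 of the whole numbers from 1 to 100 are absent from each KO column, as division by a factor below 1 gives, so no count model was used. Samples were grouped by title. Values were transformed to log2(value + 1), which understates the change of low genes. Genes with a mean of at least 10 were fitted in R 4.3.3 with limma 3.58.1 (group as the single term, eBayes with an intensity trend, two-sided, Benjamini-Hochberg over 15058 genes, threshold 0.05). SEs and 95% intervals are limma's, and the interval of a ratio is that on the log2 scale raised from base 2. A ratio of means is on the count scale. Levels per kilobase use the union of a gene's exons in GENCODE M21 (GRCm38). Promoter windows are RefSeq's, on GRCm38.p6. The test was checked on simulated counts with a common dispersion for all genes. That check says nothing of how the calls depend on the filter or the trend. The alternatives were pseudocounts of 0.5 and 5, other filters (none, a mean of at least 50), no trend, other scalings (same total, trimmed mean of M values, quantile), a replicate block and leaving out each library. All 10 TGF-β genes, Yap1 and Wwtr1, and up to 6 genes per pathway list by smallest p are named, with any further gene of a small count. Itgav, Itgb3, Itgb5, Itgb8, Smad2, Skil, Pmepa1, Cnn1, Col5a1 and Postn were named after their values were seen. The genes and lists were chosen with earlier results of these data known. One listed gene is counted but not reported here. No set of genes was tested as a set.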

Additional observations from a re-analysis of the deposited data

How the results depend on the processing

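All genes gave 1443 higher and 1009 lower calls. Without the filter or without the trend there were 0 higher and 0 lower calls by limma (5472 and 4274 genes had an unadjusted p under 0.05). With 1 library left out, the counts over all genes ran from 0 to 587 higher and 0 to 153 lower (2671 to 3824 genes at an unadjusted p under 0.05). Only the fit without WT replicate 2 called any gene, so calls lost in the other 3 such fits say nothing of stability. Of the TGF-β genes, 0 were lower without the filter, without the trend and whichever library was left out (range 0 to 0), and Tgfb2 and Ltbp1 passed in the other 7 settings. No TGF-β gene was called higher as reported, 3 were at the same total (Tgfb1, Tgfbr1 and Tgfbr2) and 2 after quantile normalization (Tgfbr1 and Tgfbr2). The numbers in the titles are not said to mark a shared litter or day. Deviations of same-numbered libraries correlated at 0.118 across 15058 genes, and with the replicate block the calls over all genes were 3036, against 2452 without it. The block called 1 TGF-β gene higher, Ltbp2 (limma adjusted p = 0.021), and 13 genes higher and 5 lower in the list of TGF-β-induced genes, against 5 and 4 without it. Among fibroblast markers it called 7 higher, against 2. With the longest transcript as length, the shares were 9.60% in KO and 5.32% in WT for Tgfb1, 31.7% in WT for Tgfb2, 67.6% and 63.0% for Tgfb3, 35.7% and 49.3% for Ltbp1, 24.0% and 16.4% for Ltbp3, and 30.6% in WT for Ltbp4. The causes were not tested. The lowest counts, those of Tgfb1, leave it the widest counting error of the ligands.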
